A study of Homo sapiens with 24 samples.

Results

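The genes described here are 39 genes of DNA replication and nucleotide supply, taken by symbol from a table of 60232 genes in which each symbol matched 1 Ensembl identifier. All 39 passed the filter on low counts, as did 18379 genes in all. RNA was measured by RNA-seq in 22Rv1 cells, an established human prostate carcinoma line, in 3 groups of 3 biological replicates. 2 groups received KB02 or KB05, small molecules known here by code names, at 200 µM for 1 h followed by 2 h in fresh medium. The control group received DMSO, the solvent. The sample titles label all 3 groups as 3 h, whereas the column names of the deposited counts label them as 2 h. A further 15 samples of the series, labelled 8 h, were not analysed here. All 9 libraries come from 1 cell line with no genetic change stated in the labels, so the values describe this line under 1 dose and 1 time.

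Replication starts at origins, where the origin recognition complex, CDC6 and CDT1 load the MCM2-7 ring onto DNA as an inactive helicase. CDC45 and the GINS complex turn that ring into the active CMG helicase, primase lays down RNA primers, the RFC loader places the PCNA clamp, and polymerases epsilon and delta extend the strands. FEN1 and LIG1 finish the lagging strand, RPA covers single-stranded DNA, and ribonucleotide reductase (RRM1 with RRM2), thymidylate synthase and thymidine kinase supply the deoxynucleotides. Many of these genes are transcribed as cells pass from G1 into S phase, under the E2F and RB proteins, and proliferating carcinoma lines express them strongly.

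The libraries held 15506975 to 21900548 counts, and every member had at least 140 counts in every library. The precision followed the counts in part: the SE of a change was 0.07 for the abundant members and 0.13 for POLE2, which had the fewest counts. All 10 prostate luminal markers were measured, with a summed level of 2698 to 3064 CPM (counts scaled to a common library size) in DMSO, 2461 to 2620 in KB02 and 3174 to 3233 in KB05. That sum is carried by the keratins KRT8 and KRT18, and single markers moved: with KB02 EPCAM was at -1.44 and TMPRSS2 at -1.34 on the log2 scale, and with KB05 TMPRSS2 was at -0.81 and KLK2 at 0.42. The 16 markers of immune, endothelial, stromal and basal cells summed to 39.4 to 48.7, 47.1 to 58.2 and 46.1 to 47.5 CPM, and 6 of them were too low to test (KRT5 reached 1 count and VWF 2 counts in any library). CD14, a monocyte marker, stood at 0.258 to 0.729 CPM in DMSO and 7.04 to 11.8 CPM in KB02. The share of counts from mitochondrial protein-coding genes was 13.78 to 15.38% in DMSO, 11.21 to 12.31% in KB02 and 9.2 to 10.07% in KB05, so it moved with the groups. The part of these shifts in the values below was not tested.

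With KB02, 26 of the 39 genes (66.7%) differed from DMSO at an adjusted p below 0.05 in edgeR's quasi-likelihood test, against a background of 46.1% of all genes tested. Of these, 21 fell, where 23.3% of all genes fell, and 5 rose, where 22.8% of all genes rose. Genes that pass a test are more often the abundant ones: among the 9598 genes at or above 9.78 CPM, the mean level of the lowest member, 60.4% were called, 32.0% lower and 28.4% higher. Read against that level, the total count of 26 was near the background, and the 21 lower genes (53.8%) were the part that stood above it. The median change of the 39 genes was -0.22 on the log2 scale, with a range of -0.76 to 0.46, where the median of all genes tested was 0.0. In bulk RNA, fewer cells of a kind (cells in S phase, for example) and less RNA per cell cannot be told apart.

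The size of the KB02 changes was modest. RRM2, LIG1, MCM6 and POLE had the most negative values, and RRM2, LIG1 and MCM6 alone fell by at least 1.5-fold, a size that 14.2% of all genes reached downwards. The 5 genes that rose were ORC6, RFC2, PRIM2, POLD1 and TK1, none of them by 1.5-fold, where 11.6% of all genes rose that far. These 1.5-fold shares include genes of low count, and no such share was computed at the members' level. Calls for these 5 and for 12 of the 21 lower genes held under all 13 alternatives computed. Calls for MCM2, MCM3, MCM4, GINS1, PCNA, RFC3, PRIM1, RPA1 and TYMS were lost under at least 1 of the alternatives. Without scaling factors the members split into 6 higher and 12 lower and all genes into 5733 higher and 3254 lower, in place of 4191 and 4279, with the median of all genes shifted to 0.13 and that of the members to -0.09.

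With KB05, 19 of the 39 genes (48.7%) were called against DMSO, where the background was 39.8% of all genes tested and 53.7% of the 9598 genes at the members' level. Of the 19, 12 fell and 7 rose (30.8% and 17.9% of the members), where 21.1% of all genes fell and 18.7% rose. At the members' level 30.8% of genes fell and 22.9% rose, so neither count stood above the background. The median change was -0.1 and the range -1.07 to 0.38. POLE, with the lowest value, fell 2.1-fold and was the only member past 1.5-fold, with MCM6 just inside that limit. Of all genes, 8.16% reached that size downwards and 8.69% upwards, and no such share was computed at the members' level. Both comparisons use the same 3 DMSO libraries and are not independent, so their values are set side by side below. The call count rested partly on single libraries: it was 12 without DMSO replicate 1, and the count of higher genes was 3 without that library and 4 without KB05 replicate 2 or without KB05 replicate 3.

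**Figure D1:**
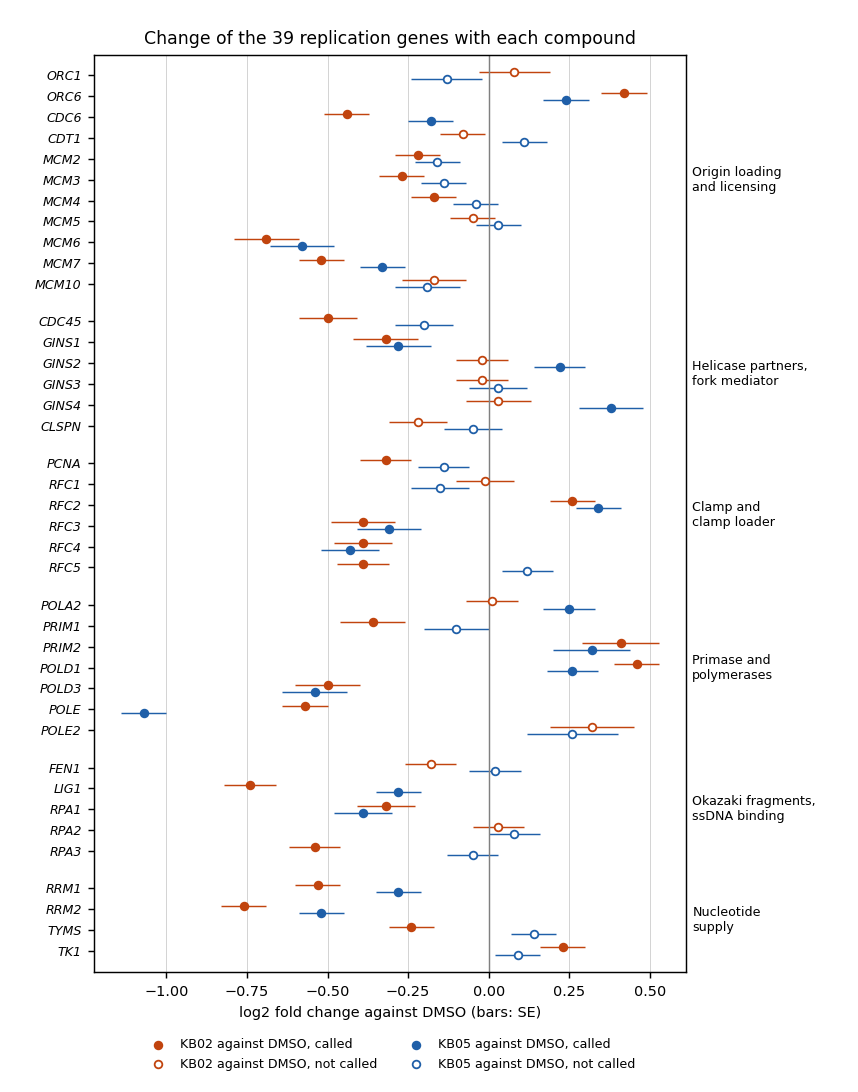
Log2 fold change against DMSO (x axis) of each of the 39 genes, grouped by role, with KB02 in orange and KB05 in blue; points are the fitted values of 3 against 3 libraries, bars their SE, and filled points passed an adjusted p of 0.05. Most filled orange points lie left of 0, ORC6, RFC2, PRIM2, POLD1 and TK1 lie right of it, and POLE with KB05 lies farthest left at -1.07.

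Compared directly at the same dose and time, 16 of the 39 genes (41.0%) differed between KB05 and KB02, where 40.0% of all genes did and 51.5% of genes at the members' level. Levels were higher with KB05 for 13 genes and lower for 3, where 21.8% of all genes were higher and 18.2% lower, and 28.8% and 22.7% of those at the members' level. The median difference was 0.11 for the members and 0.06 for all genes, and no member but RFC5 passed 0.5 upwards. RFC5, LIG1, RPA3 and TYMS (higher with KB05) and POLE (lower with KB05) kept their calls under all 13 alternatives; the other 11 calls did not. The counts depend on scaling and on single libraries: without scaling factors 10 members were called, 4 higher and 6 lower, beside 2695 higher and 4518 lower genes in all in place of 3998 and 3348. Without KB02 replicate 2 the members called were 10, with 8 higher, and without KB02 replicate 3 they were 9, with 8 higher and 1 lower. The count of lower members was also 1 without KB05 replicate 1 and without KB05 replicate 3.

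**Figure D2:**
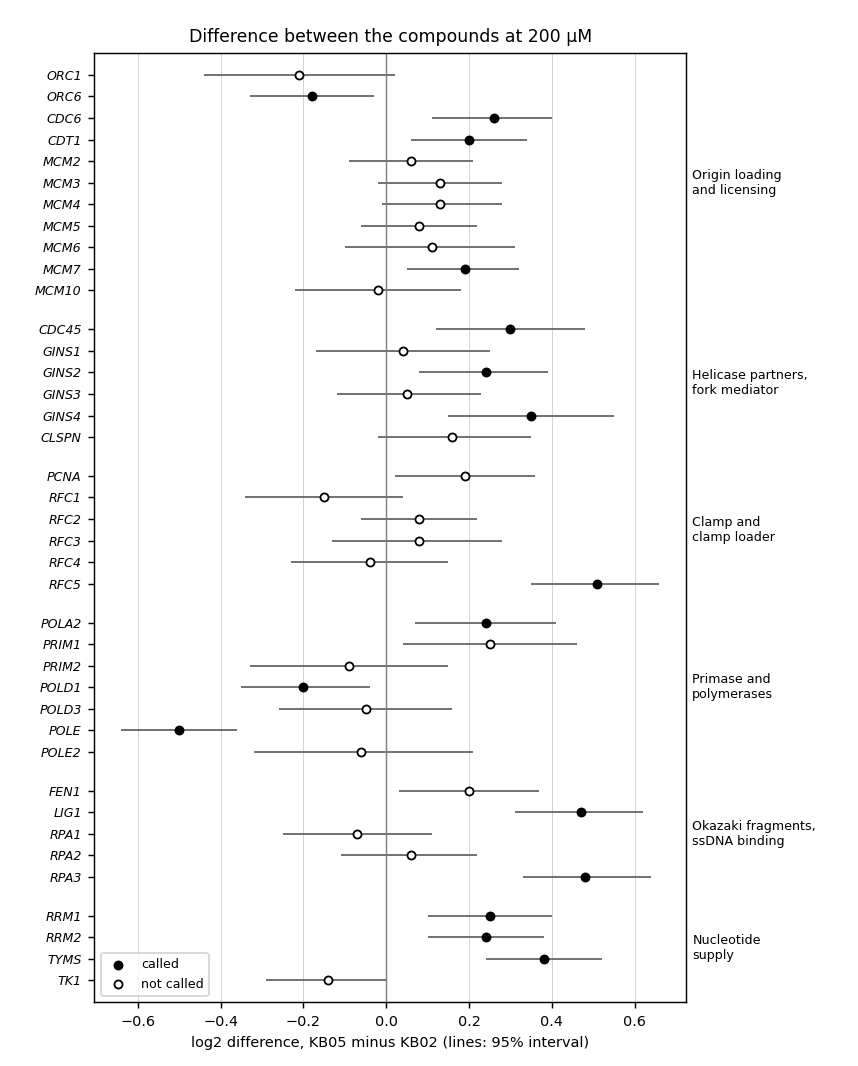
Log2 difference between KB05 and KB02 (x axis, KB05 minus KB02) for each of the 39 genes by role; points are fitted values, lines their 95% intervals, and filled points passed an adjusted p of 0.05. RFC5, RPA3 and LIG1 lie farthest right, between 0.47 and 0.51, and POLE lies farthest left at -0.50.

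Sequence upstream of these genes was examined for short words bound by factors of the cell cycle. RefSeq promoters (250 bases before to 50 after the start, GRCh38.p14) were present in the reference table for 33 of the 39 genes. An E2F word (TTTCCCGC, TTTCGCGC, TTTGGCGC or TTTGCCGC, either strand) stood in 17 of the 33 (51.5%), against 3.31% of 35116 promoters and 5.13% of the 12504 promoters of tested genes. In 15 of the 17 genes a word began between 60 bases before and 10 bases after the start. The CCAAT box (CCAAT, either strand) stood in 57.6% of the members and 36.6% of tested genes, and the GC box (GGGCGG, either strand), whose reverse complement can share letters with an E2F word, in 69.7% and 67.9%. The CHR word TTTGAA, which is common at mitotic genes, stood in 3.03% of the members (1 gene) and 9.96% of tested genes.

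The following windows of 30 bases show the E2F word nearest the start in the 7 genes that hold one and are described library by library below, so that a reader can see the words beside the values. Each is given 5′ to 3′ on the strand of the gene, with bases inside an E2F word on either strand in capitals.
MCM6 (chr2:135876511-135876540, minus strand): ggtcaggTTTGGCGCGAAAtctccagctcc
MCM7 (chr7:100101388-100101417, minus strand): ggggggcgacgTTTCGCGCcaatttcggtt
POLE (chr12:132687342-132687371, minus strand): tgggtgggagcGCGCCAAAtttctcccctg
CDC6 (chr17:40287875-40287904, plus strand): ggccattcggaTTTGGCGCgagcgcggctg
TYMS (chr18:657603-657632, plus strand): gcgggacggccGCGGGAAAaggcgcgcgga
LIG1 (chr19:48170440-48170469, minus strand): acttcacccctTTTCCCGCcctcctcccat
GINS1 (chr20:25407667-25407696, plus strand): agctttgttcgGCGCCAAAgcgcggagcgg
In MCM6 a word on the plus strand of the gene and one on the other strand overlap, giving 12 capitals in a row. The word began 86 bases before the RefSeq start in MCM6 (its minus-strand word), 9 in MCM7, 18 in POLE, 39 in TYMS and 114 in LIG1. It began at base 8 after that start in CDC6 and base 6 in GINS1. RefSeq starts differ from the edges of the GENCODE gene spans used elsewhere in this text. Against those spans, the words of MCM7, POLE, CDC6, TYMS and LIG1 lie inside the gene, and those of MCM6 and GINS1 lie before it.

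A pair of longer stretches, both outside annotated exons, set a gene that fell beside one that rose. Other members have such stretches too, and the pair serves as an example only. RRM2, the member with the lowest KB02 value, and RRM1, CDC45, RFC4 and RFC5 also fell with KB02 and hold no E2F word. The first covers bases -150 to -1 of MCM6, with the E2F words that lie whole inside it in capitals. A further E2F word begins at -152 and is cut by the edge of the stretch. MCM6 also holds CCAAT boxes on the other strand, beginning at -100 and -58, left here in lower case. The second covers bases -140 to -17 of ORC6, with its 2 CCAAT boxes (1 on each strand) in capitals. ORC6 holds no E2F word in its promoter window.
MCM6 (chr2:135876444-135876593, minus strand): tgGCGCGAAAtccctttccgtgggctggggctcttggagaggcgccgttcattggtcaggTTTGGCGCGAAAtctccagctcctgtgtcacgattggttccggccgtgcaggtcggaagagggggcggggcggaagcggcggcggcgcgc
ORC6 (chr16:46689519-46689642, plus strand): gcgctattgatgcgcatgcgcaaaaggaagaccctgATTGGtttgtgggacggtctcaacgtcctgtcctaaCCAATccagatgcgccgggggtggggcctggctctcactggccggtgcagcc
A match to a word is a description of these letters and not evidence of binding. Among the 17 genes with an E2F word, 11 fell and 0 rose with KB02 (median -0.27). Among the 16 without one, 7 fell and 5 rose (median -0.18). Of all genes tested, 23.3% fell and 22.8% rose with KB02, and at the members' level 32.0% and 28.4%. The lower calls of MCM2, MCM3, GINS1, PCNA, RFC3 and TYMS (with a word) were lost under at least 1 alternative. So were those of PRIM1 and RPA1 (without one). With KB05, 7 fell and 2 rose among the 17 (median -0.14), and 4 fell and 4 rose among the 16 (median -0.12). Of all genes tested, 21.1% fell and 18.7% rose with KB05, and at the members' level 30.8% and 22.9%. KB05 calls lost under alternatives were CDC6, GINS1, RFC3, GINS2 and POLA2 with a word, and ORC6, PRIM2 and POLD1 without one. These splits were not tested.

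**Figure D3:**
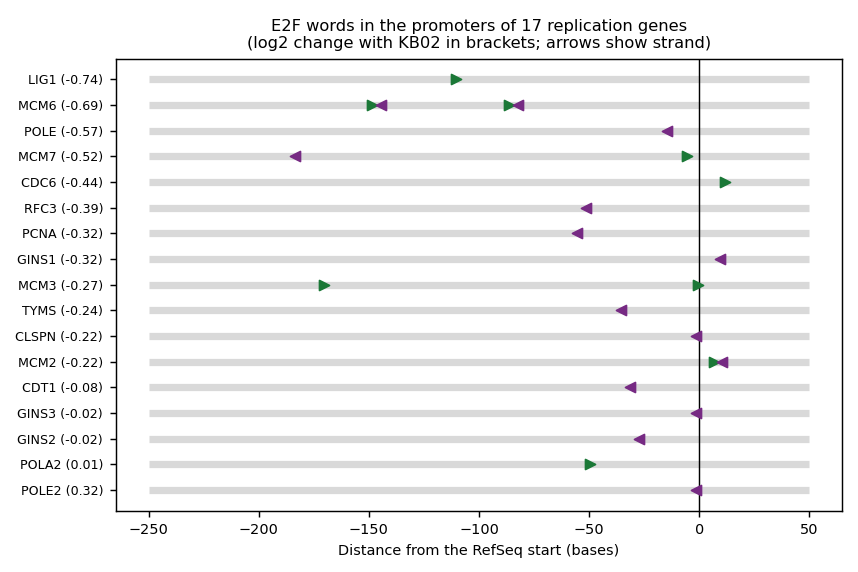
Position of each E2F word relative to the RefSeq start (x axis, bases) in the 17 genes that hold one, ordered by their log2 change with KB02, which is printed in brackets; grey bars mark the 300 bases searched, and arrows show a word on the strand of the gene (right, green) or on the other strand (left, purple). In 15 of the 17 genes a word lies near the start; LIG1 and MCM6 hold theirs farther upstream.

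Among the 11 genes of origin loading and licensing, 6 fell and 1 rose with KB02, and 3 fell and 1 rose with KB05. The share lower was 54.5% with KB02, against 23.3% of all genes and 32.0% of genes at the members' level, and 27.3% with KB05, against 21.1% and 30.8%. MCM7, a subunit of the ring, was the most abundant member, with 807, 904 and 920 CPM in the DMSO libraries (919.5 in the highest), 627, 609 and 598 with KB02, and 679, 708 and 698 with KB05. No library of either compound reached the DMSO range. The fitted change was -0.52 ± 0.07 (SE, n = 3 against 3, edgeR adjusted p = 1.59e-07) with KB02 and -0.33 ± 0.07 (edgeR adjusted p = 0.000202) with KB05. The difference between the compounds, 0.19 ± 0.07, passed at an edgeR adjusted p of 0.03 but was lost under 8 of 13 alternatives.

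MCM6 (ENSG00000076003.5, chr2:135839626-135876426, minus strand, GRCh38), another ring subunit, had 34.0, 28.5 and 33.6 CPM with DMSO, 19.9, 20.5 and 18.9 with KB02, and 21.2, 24.1 and 18.9 with KB05. All 6 treated libraries lay below the lowest DMSO library, and the 2 treated groups overlapped. The changes were -0.69 ± 0.1 (edgeR adjusted p = 5.99e-07) and -0.58 ± 0.1 (edgeR adjusted p = 1.82e-05), and the difference between the compounds had a 95% interval of -0.1 to 0.31. The other ring subunits moved less: with KB02, MCM2 was at -0.22, MCM3 at -0.27, MCM4 at -0.17 and MCM5 at -0.05, of which all but MCM5 were called. The MCM4 call was lost under 10 of 13 alternatives and the MCM2 call under 5. With KB05 these 4 subunits lay between -0.16 and 0.03 and none was called. The ring had 5 of 6 subunits lower with KB02 (background 32.0% at the members' level), of which MCM2, MCM3 and MCM4 were lost under alternatives, and 2 of 6 with KB05, near the background of 30.8%.

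CDC6, a loader of the ring, had the smallest DMSO spread of the 39 genes relative to its mean (SD 1.14% of the mean), with 74.6, 73.9 and 72.9 CPM. With KB02 its level was 55.1, 55.0 and 53.4 CPM, and with KB05 it was 63.8, 65.0 and 66.6 CPM, so the 3 groups formed 3 separate ranges. Its change was -0.44 ± 0.07 with KB02 (edgeR adjusted p = 3.48e-06) and -0.18 ± 0.07 with KB05 (edgeR adjusted p = 0.0352), and the KB05 call was lost under 10 of 13 alternatives. KB05 stood 0.26 ± 0.07 above KB02 (edgeR adjusted p = 0.00348).

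ORC6, a subunit of the origin recognition complex, went the other way. It had 60.9, 65.4 and 58.9 CPM in DMSO, 78.9, 86.1 and 83.4 in KB02, and 67.1, 76.1 and 75.9 in KB05, with no overlap between any 2 groups. The rise was 0.42 ± 0.07 with KB02 (edgeR adjusted p = 1.65e-05) and 0.24 ± 0.07 with KB05 (edgeR adjusted p = 0.01), the latter lost under 3 of 13 alternatives. ORC1, CDT1, MCM5 and MCM10 passed in neither comparison with DMSO, with values from -0.19 to 0.11. CDT1, the partner of CDC6 in loading, was 0.2 higher with KB05 than with KB02, a call lost under 7 of 13 alternatives.

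The partners that activate the ring did not move as a unit. CDC45 had 47.7, 48.5 and 43.3 CPM in DMSO, 33.6, 36.3 and 28.3 in KB02, and 37.8, 43.1 and 40.4 in KB05. The KB02 libraries lay wholly below the other groups, with a change of -0.5 ± 0.09 (edgeR adjusted p = 1.8e-05). With KB05 the change was -0.2 ± 0.09 (edgeR adjusted p = 0.0644), and KB05 stood 0.3 ± 0.09 above KB02 (edgeR adjusted p = 0.0076), a call lost under 3 of 13 alternatives.

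GINS is a ring of 4 subunits that act in equal number. GINS1 fell with KB02 by 0.32 on the log2 scale and with KB05 by 0.28, from 28.0, 24.6 and 25.2 CPM to 20.7, 22.4 and 19.2 CPM and to 22.3, 23.3 and 18.6 CPM. Neither treated group overlapped DMSO, but the edgeR adjusted p-values were 0.00858 and 0.0265 and the calls were lost under 2 and 3 of 13 alternatives. GINS4 had 20.5, 19.4 and 22.6 CPM with DMSO, 23.8, 20.5 and 19.2 with KB02 and 27.0, 28.5 and 25.7 with KB05. It rose with KB05 by 0.38 ± 0.1 (edgeR adjusted p = 0.00251), above all libraries of the other 2 groups, and with KB02 its value was 0.03 with a 95% interval of -0.17 to 0.23. GINS2 rose by 0.22 with KB05, a call lost under 3 of 13 alternatives, and GINS3 was called in no comparison. Claspin (CLSPN), which links the fork to the checkpoint kinase, had values of -0.22 with KB02 (edgeR adjusted p = 0.0524) and -0.05 with KB05.

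In the clamp loader, subunits of 1 complex changed in opposite directions. RFC2 had 126, 134 and 141 CPM in DMSO, 162, 164 and 153 in KB02, and 163, 173 and 171 in KB05 (172.5 in the highest), so every treated library lay above every DMSO library. Its rise was 0.26 ± 0.07 with KB02 (edgeR adjusted p = 0.00217) and 0.34 ± 0.07 with KB05 (edgeR adjusted p = 0.000172). RFC4 fell from 47.3, 53.4 and 60.1 CPM to 42.4, 43.1 and 37.4 CPM with KB02 and to 35.6, 43.0 and 41.0 CPM with KB05. The RFC4 changes were -0.39 ± 0.09 (edgeR adjusted p = 0.000728) and -0.43 ± 0.09 (edgeR adjusted p = 0.000372). RFC3 was lower with both compounds, at -0.39 and -0.31, with calls lost under 1 and 2 of 13 alternatives, and RFC1, the large subunit, was called in no comparison.

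RFC5 had the largest positive difference between KB05 and KB02, within the SE of those of RPA3 and LIG1. Its level was 47.4, 45.4 and 48.9 CPM with DMSO, 37.8, 37.5 and 32.8 with KB02, and 49.9, 51.7 and 51.8 with KB05. All KB02 libraries lay below DMSO and all KB05 libraries above it. The fall with KB02 was -0.39 ± 0.08 (edgeR adjusted p = 0.000116), the KB05 value of 0.12 ± 0.08 did not pass (edgeR adjusted p = 0.254), and the difference of 0.51 ± 0.08 did (edgeR adjusted p = 3.98e-06). PCNA, the clamp that this loader places on DNA, fell by 0.32 with KB02 and was at -0.14 with KB05 (edgeR adjusted p = 0.207). The PCNA call was lost without scaling factors, and in 1 of its KB02 libraries the level was 187 CPM where the other 2 had 240.1 and 239.7.

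POLE, the catalytic subunit of the leading-strand polymerase epsilon, had the largest change of the 39 genes. The gene (ENSG00000177084.18) spans chr12:132623753-132687365 on the minus strand of GRCh38 in GENCODE release 29. Its level was 156, 176 and 171 CPM in DMSO, 111, 113 and 113 with KB02 and 83.4, 79.6 and 75.9 with KB05. The 3 groups formed 3 separate ranges in the order DMSO, KB02, KB05. The change was -0.57 ± 0.07 with KB02 (edgeR adjusted p = 2.54e-08) and -1.07 ± 0.07 with KB05 (edgeR adjusted p = 1.98e-13), and KB05 was below KB02 by -0.5 ± 0.07 (edgeR adjusted p = 7.29e-07). The other subunits of polymerase epsilon were examined from the list of further fork genes: POLE3 was at -0.26 and -0.2 and POLE4 at -0.89 and -0.48 with KB02 and KB05, all 4 called, though POLE3 with KB05 only at an edgeR adjusted p of 0.0488. POLE2, the remaining subunit, was the least abundant member and had values of 0.32 and 0.26, neither of them called (edgeR adjusted p = 0.052 and 0.131). For POLE4 the order of the compounds was the reverse of that for POLE, 0.41 ± 0.09 higher with KB05 than with KB02 (edgeR adjusted p = 0.000568).

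POLD1, the catalytic subunit of the lagging-strand polymerase delta, rose. It stood at 128, 159 and 154 CPM in DMSO, 202, 193 and 213 with KB02 and 181, 174 and 175 with KB05 (180.6 in the highest), with no overlap among the 3 groups. The rise was 0.46 ± 0.07 with KB02 (edgeR adjusted p = 6.15e-06) and 0.26 ± 0.08 with KB05 (edgeR adjusted p = 0.00564), the latter at 0.0502 under 1 of 13 alternatives. POLD3, an accessory subunit of the same enzyme, fell from 22.1, 24.8 and 21.9 CPM to 16.7, 15.5 and 16.6 CPM with KB02 and to 14.5, 16.7 and 16.2 CPM with KB05. Its changes were -0.5 ± 0.1 (edgeR adjusted p = 0.000115) and -0.54 ± 0.1 (edgeR adjusted p = 6.88e-05). Of the remaining subunits, POLD4 rose by 0.26 and 0.21 (edgeR adjusted p = 0.00998 and 0.049), and POLD2 was at -0.04 and 0.06, not called.

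Primase also split. PRIM1, its catalytic subunit, had 23.6, 24.4 and 25.6 CPM in DMSO, 21.6, 19.5 and 16.2 in KB02 and 20.9, 24.4 and 23.3 in KB05. It fell with KB02 by -0.36 ± 0.1 (edgeR adjusted p = 0.00483), lost without scaling factors, and overlapped DMSO with KB05. PRIM2, the large regulatory subunit, rose by 0.41 with KB02 and by 0.32 with KB05, the second lost under 6 of 13 alternatives. POLA2, the regulatory subunit of the polymerase alpha that works with primase, rose by 0.25 with KB05, lost under 2 of 13 alternatives, and was at 0.01 with KB02.

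LIG1 (ENSG00000105486.14, chr19:48115445-48170603, minus strand, GRCh38), the ligase that seals Okazaki fragments, had 130, 149 and 161 CPM in DMSO (129.5 in the lowest), 91.4, 84.6 and 86.0 with KB02 and 116, 126 and 120 with KB05 (119.5 in its replicate 3). The groups did not overlap, with KB05 in the middle. Its change was -0.74 ± 0.08 with KB02 (edgeR adjusted p = 8.64e-10) and -0.28 ± 0.07 with KB05 (edgeR adjusted p = 0.00324), and KB05 stood 0.47 ± 0.08 above KB02 (edgeR adjusted p = 7.62e-06). FEN1, the nuclease that trims the fragments before sealing, had 85.7, 72.5 and 65.3 CPM in DMSO, 67.3, 70.1 and 60.2 in KB02 and 73.6, 74.2 and 79.4 in KB05. Both treated groups overlapped DMSO, and no FEN1 comparison passed.

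The 3 subunits of RPA, which bind as a trimer, gave 3 different patterns. RPA1 had 87.5, 73.2 and 70.7 CPM in DMSO, 61.3, 69.6 and 54.6 in KB02 and 59.4, 59.7 and 57.6 in KB05. It was lower with KB02 by -0.32 ± 0.09 (edgeR adjusted p = 0.00327), lost without scaling factors, and with KB05 by -0.39 ± 0.09 (edgeR adjusted p = 0.000699). RPA3 had 63.7, 66.1 and 64.0 CPM in DMSO, 41.5, 45.9 and 46.1 in KB02 and 57.4, 63.7 and 65.7 in KB05. It fell with KB02 alone, by -0.54 ± 0.08 (edgeR adjusted p = 5.47e-07), and the difference between the compounds, 0.48 ± 0.08, passed the test itself (edgeR adjusted p = 4.83e-06). RPA2 was at 0.03 and 0.08 and called in no comparison.

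Ribonucleotide reductase makes deoxynucleotides from ribonucleotides, and its 2 S-phase subunits both fell. RRM2 (ENSG00000171848.16, chr2:10120698-10131419, plus strand, GRCh38), the subunit that limits the enzyme through the cell cycle, had 211, 207 and 206 CPM in DMSO, 125, 129 and 114 with KB02 (113.5 in the lowest) and 145, 148 and 141 with KB05. The 3 groups were separate, with KB02 lowest. The change was -0.76 ± 0.07 (edgeR adjusted p = 5.34e-11) and -0.52 ± 0.07 (edgeR adjusted p = 2.66e-07). RRM1, the catalytic subunit, had 127, 120.2 and 120.4 CPM in DMSO, 86.2, 92.7 and 75.6 with KB02 and 103, 103 and 96.5 with KB05. Its change was -0.53 ± 0.07 (edgeR adjusted p = 4.28e-07) and -0.28 ± 0.07 (edgeR adjusted p = 0.0025). KB05 stood above KB02 by 0.24 for RRM2 and 0.25 for RRM1, calls lost under 1 and 3 of 13 alternatives. RRM2B, the subunit used outside S phase, was at 0.07 and 0.1 and was not called.

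The 2 thymidylate enzymes differed. TYMS, which makes thymidylate from deoxyuridylate, had 161, 162 and 158 CPM in DMSO, 132, 140.4 and 134 with KB02 and 166, 182 and 182 with KB05. KB02 lay below DMSO and KB05 above it, with changes of -0.24 ± 0.07 (edgeR adjusted p = 0.00319, lost under 3 of 13 alternatives) and 0.14 ± 0.07 (edgeR adjusted p = 0.102). The difference between the compounds was 0.38 ± 0.07 (edgeR adjusted p = 2.51e-05). TK1, which salvages thymidine, had 127, 148 and 148 CPM in DMSO, 168, 169 and 160 with KB02 (159.7 in the lowest) and 155, 148 and 147 with KB05. It rose with KB02 by 0.23 ± 0.07 (edgeR adjusted p = 0.00683) and overlapped DMSO with KB05.

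**Figure D4:**
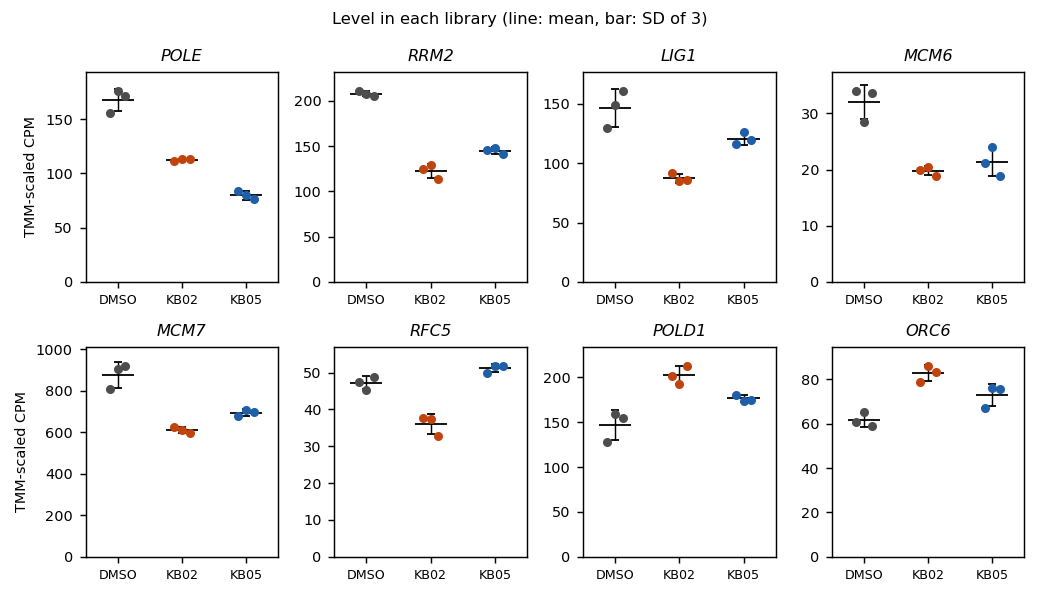
TMM-scaled CPM (y axis, from 0) in each of the 9 libraries for POLE, RRM2, LIG1, MCM6, MCM7, RFC5, POLD1 and ORC6; each point is 1 library, the line is the mean and the bar the SD of 3 libraries. POLE falls in steps to 75.9 to 83.4 CPM with KB05, RRM2 and LIG1 are lowest with KB02, RFC5 is low with KB02 alone, and POLD1 and ORC6 are above DMSO in every treated library.

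Per kilobase of exon, the DMSO levels of the 39 genes ran from 2.74 CPM per kb for PRIM2 and 2.89 for POLE2 to 189 for PCNA and 199.9 for MCM7. Both end pairs are within their SDs, which were 2.27% and 8.87% of the mean for the low pair and 5.78% and 6.99% for the high pair. Subunits of the MCM2-7 ring, which assemble in equal number, spanned 7.77 CPM per kb (MCM6) to 199.9 (MCM7), with MCM4 at 13.1, MCM3 at 33.7, MCM5 at 35.7 and MCM2 at 40.1. The length is the union of annotated exons, so these levels understate a gene whose main transcript is short. Across the 39 genes the change with KB02 had a Spearman rho of -0.1 with gene span and -0.27 with the DMSO level, and the change with KB05 a rho of -0.25 and -0.14. These are descriptions over genes that share the same libraries.

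Reads from overlapping genes could affect some values, and the sources used here do not say whether counting used strand. Overlaps were read from gene spans, introns included, and shared exon bases were not examined. The gene spans of TYMS and ENOSF1 overlap by 3255 bases on opposite strands, and ENOSF1 was at -0.6 with KB02 and -0.5 with KB05. The RPA3 span overlaps UMAD1 (-0.19 and 0.18), and the FEN1 span overlaps FADS2 (-1.04 and -0.42) and TMEM258 (-0.79 and -0.33), FADS2 lying on the strand of FEN1. POLA2 and RRM2 overlap a further annotated protein-coding gene on the same strand over most of their span, and MCM2 and PRIM1 also overlap other genes. MCM7, RPA1, RFC5, RFC4 and GINS2 overlap a tested protein-coding gene on the opposite strand by 7 to 933 bases. The levels of all these members are therefore less certain, to an extent that was not tested. Of 14 named pseudogene copies of 7 members, 3 had any count, at most 0.0899% of the count of the member.

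Other genes of the same pathways were counted against the same background. Over all genes tested, 23.3% were lower and 22.8% higher with KB02, and 21.1% and 18.7% with KB05. At the members' level the shares were 32.0% and 28.4% with KB02, and 30.8% and 22.9% with KB05. Of 17 further initiation genes, 3 rose and 4 fell with KB02, and 1 rose and 5 fell with KB05, so that 23.5% and 29.4% were lower. Their median changes were 0.01 and -0.05. MCM9, a helicase of recombination and repair, rose with KB02 by 0.64 and RECQL4, a helicase that also acts at origins, by 0.52, while with KB05 they were at 0.17 and 0.07 and not called. MTBP and DONSON, which help to activate the helicase, fell with KB05 by 0.84 and 0.63 on the log2 scale. MTBP was at -0.27 with KB02 and not called, and DONSON fell by 0.27, a call lost under 7 of 13 alternatives.

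Of 27 further fork genes, 6 rose and 8 fell with KB02, and 6 rose and 9 fell with KB05. The shares lower, 29.6% and 33.3%, were near the 32.0% and 30.8% at the members' level. TIMELESS, a component of the fork protection complex, fell from 153 to 167 CPM to 89.1 to 99.0 CPM with KB02 and 98.1 to 105 CPM with KB05, changes of -0.78 and -0.64. DNA2, a nuclease of long flaps, fell by 0.71 and 0.88 on the log2 scale with KB02 and KB05. ATAD5, which unloads the PCNA clamp, was at 0.08 with KB02 and -0.83 with KB05, and the difference, KB05 minus KB02, was -0.91 ± 0.14 (edgeR adjusted p = 6.15e-06).

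Of 15 further deoxynucleotide genes, 1 rose and 4 fell with KB02, and 2 rose and 2 fell with KB05, with 26.7% and 13.3% lower. DCTD, which makes the deoxyuridylate that TYMS uses, fell by 0.59 and 0.43, and TK2, the mitochondrial thymidine kinase, fell by 0.68 with KB02. SAMHD1, which breaks down deoxynucleotide triphosphates, rose by 0.26 with KB02 (lost under 4 of 13 alternatives) and fell by 0.41 with KB05, a difference (KB05 minus KB02) of -0.67 ± 0.1 (edgeR adjusted p = 3.6e-06). Among 24 genes of purine, pyrimidine and folate synthesis, 3 rose and 8 fell with KB02 and 3 rose and 3 fell with KB05, with 33.3% and 12.5% lower. ATIC, which completes purine synthesis, fell by 0.91 and 0.41 on the log2 scale. CAD, the first enzyme of pyrimidine synthesis, was at -0.03 with KB02 and -0.82 with KB05, and PFAS, a purine enzyme, fell by 0.26 and 0.54, the former lost under 4 of 13 alternatives.

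The regulators that sit above these genes were measured in the same fit. Of 21 genes of E2F, RB and G1/S control, 12 fell and 2 rose with KB02 and 11 fell and 0 rose with KB05. That is 57.1% and 52.4% lower, against 23.3% and 21.1% of all genes and 32.0% and 30.8% of genes at the members' level, with medians of -0.26 and -0.37. MYC, a growth transcription factor, fell from 135 to 157 CPM to 20.4 to 25.3 CPM with KB02 and 37.7 to 39.4 CPM with KB05, and CCNE2, a cyclin of S-phase entry, from 15.0 to 17.8 CPM to 4.82 to 8.11 and 4.54 to 5.53 CPM. CCNE1, the paired cyclin, went the other way with KB02, where it rose by 1.18 (edgeR adjusted p = 1.63e-09), and was at 0.11 with KB05 (edgeR adjusted p = 0.551). Of 12 replication checkpoint genes, 4 fell with each compound (33.3%), near the 32.0% and 30.8% at the members' level, and 2 rose with KB02. WEE1, a kinase that restrains CDK activity, fell by 1.48 and 0.57, and ETAA1, an activator of the checkpoint kinase ATR, fell by 0.68 with KB02. ATR itself rose by 0.33 with KB02 (0.25 at an edgeR adjusted p of 0.0517 without DMSO replicate 1) and fell by 0.81 with KB05, a difference (KB05 minus KB02) of -1.15 ± 0.11 (edgeR adjusted p = 2.89e-10), and FBXO5, an inhibitor of mitotic proteolysis, fell by 0.92 with KB05.

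Of 18 mitotic genes, used here as a second phase of the cycle, 9 fell and 0 rose with KB02 and 11 fell and 1 rose with KB05. These shares lower, 9 of 18 and 61.1%, stand against 23.3% and 21.1% of all genes and 32.0% and 30.8% of genes at the members' level, with medians of -0.21 and -0.25. MKI67, a proliferation marker, was at -1.61 with KB02 and -1.45 with KB05, and KIF23, a kinesin of cytokinesis, at -0.72 and -0.75.

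**Figure D5:**
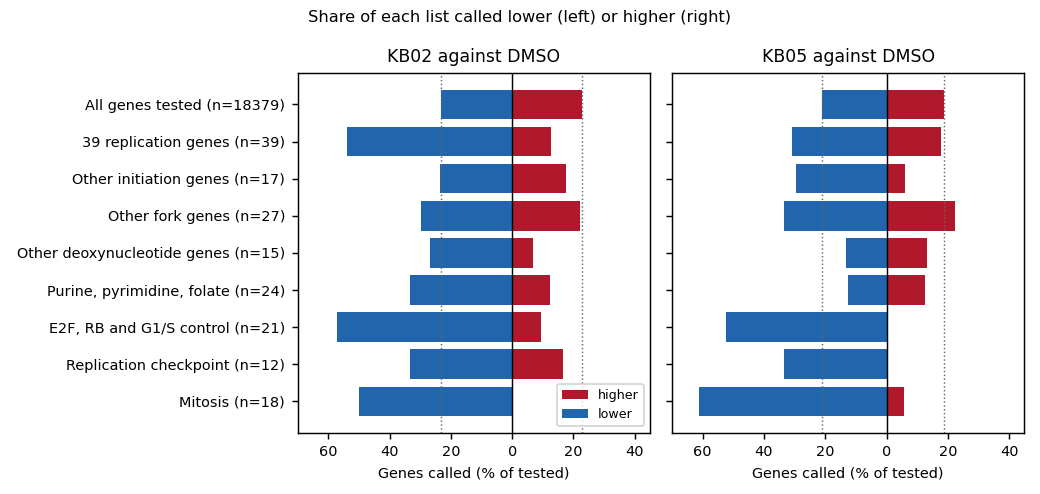
Share of tested genes called lower (bars to the left, blue) or higher (to the right, red) in each list, as a percentage of the genes tested (x axis), for KB02 and KB05 against the same DMSO libraries; dotted lines mark the shares over all 18379 genes. The 39 replication genes reach 53.8% lower with KB02 and 30.8% with KB05, and the list of E2F, RB and G1/S control reaches 57.1% and 52.4%.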

How the data were processed

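Counts for 9 libraries (3 each of DMSO, KB02 and KB05) were used as deposited. They are estimated counts per gene, and per the submitters' processing notes Salmon 1.3.0, DESeq2 1.30.1 and the builds hg38 and GRCh38.p13 were used; which step each served, the strandedness and the annotation release were not stated in the sources at hand. Between 20.3 and 24.3% of the deposited values per library were not whole, and all were rounded. Symbols came from a name table (41714 of 60232 identifiers had one), and gene spans and lengths from GENCODE release 29.

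Genes were filtered with filterByExpr (minimum count 10), scaled by TMM and tested with edgeR 4.0.16 (quasi-likelihood, robust, group only, all 9 libraries, R 4.3.3) with Benjamini-Hochberg adjustment over 18379 genes. A gene was called at an adjusted p below 0.05. CPM values are TMM-scaled, and 3 counts correspond to 0.129 to 0.195 CPM. The test was checked on simulated counts. Replicates differed from each other by more than sampling noise (chi-square per degree of freedom 4.39 to 10.5). The p-values set each group difference against the spread between replicate libraries, estimated over all 9 libraries.

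The 39 genes, the gene lists and the promoter words were chosen with earlier results of these data known. Values per library are given for members called with at least a 1.5-fold change and for up to 3 others per role with the smallest adjusted p. From each other list the 2 called genes with the largest change in each comparison with DMSO are named, except 1 that is not reported here; POLE3, POLD2, POLD4, RRM2B and CCNE1 were added after their values were seen, to complete their enzymes or pair, and the values given for other members were picked after they were seen. Alternatives covered other scalings, no filter, DESeq2 1.42.0, a replicate block, only the compared groups, and each library left out.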

Additional observations from a re-analysis of the deposited data

How the results depend on the processing

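Over 13 alternatives per comparison, no member changed direction on a called value: of 1521 verdicts on members, 1393 kept their side of the threshold, 100 lost a call and 28 gained one. With library size only, members lower with KB02 numbered 12 in place of 21, and in the comparison of KB05 with KB02 the members called numbered 10, with 4 higher and 6 lower, in place of 16, 13 and 3. The factors left out were 1.0496 to 1.0656 in KB02, 0.9376 to 0.9818 in DMSO and 0.9617 to 0.9935 in KB05. Leaving them out moved the median change with KB02 from 0.0 to 0.13 for all genes and from -0.22 to -0.09 for the members. Why the factors differ between groups was not tested. Leaving out each library in turn gave 23 to 27 members called with KB02 (5 to 6 higher, 18 to 22 lower), 12 to 18 with KB05 (3 to 6 higher, 9 to 13 lower) and 9 to 13 between the compounds (8 to 12 higher, 1 to 3 lower). Over all genes these refits called 7692 to 7969, 6174 to 6940 and 6314 to 6775. DESeq2 called 25, 19 and 16 members.

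Libraries sharing a replicate number had correlations of deviations of -0.041 to 0.081, and those with different numbers -0.066 to 0.039. As these ranges overlap, they cannot decide whether the cultures were handled in pairs. With the replicate number as a block, 27, 21 and 19 members and 8600, 7476 and 7518 genes in all were called, beside 26, 19 and 16 members and 8470, 7321 and 7346 genes without it. With 3 libraries per group the smallest change called was -0.17 (MCM4, KB02), and POLE2, the member with the fewest counts, was not called at 0.32.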

Other observations

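Of the 39 genes, 13 share a start region with a protein-coding gene on the other strand whose start lies within 1000 bases, and 12 of these neighbours were tested. Starts here are the edges of the GENCODE gene spans, not the RefSeq starts used for the promoters. Members and neighbours often had changes of unlike size. With KB02, ORC6 and VPS35 were the only pair in which both genes were called in opposite directions. Pairs in which both were called and fell with KB02 were MCM2 and TPRA1 (-0.22 and -1.34), PRIM1 and HSD17B6 (-0.36 and -1.42), POLE and PXMP2 (-0.57 and -0.27), and PCNA and CDS2. ORC6 rose by 0.42 with KB02 while VPS35, whose start lies 125 bases away, fell by 0.18 on the log2 scale. PCNA fell by 0.32 with KB02 and CDS2, with a start 160 bases away, was at -1.2 with KB02 and -0.77 with KB05. LIG1 fell by 0.74 with KB02, where ZSWIM9, at 89 bases, was at 0.31 and not called (edgeR adjusted p = 0.135). POLE was at -1.07 with KB05 and PXMP2, at 241 bases, at -0.23. MCM4 was at -0.04 with KB05 and PRKDC, the kinase of end joining whose start lies 2 bases away, at -0.63 (edgeR adjusted p = 2.59e-08). TK1 and AFMID, 84 bases apart, both rose with KB02, by 0.23 and 0.66. These pairs were chosen after their values were seen, and no test of the pairing was made.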
